A study of Rickenella mellea with 14 samples.

Results

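In the small moss-associated mushroom Rickenella mellea, 32 of the 15477 genes in a deposited expression matrix were lower in RNA at 2 successive steps. Their scaled level was lower in primordia than in mycelium and lower again in young fruiting bodies. In the mature cap and stipe it stayed within a set limit of the young fruiting body. They were chosen by their measured values, on log2 RPKM (reads per kilobase of gene model, scaled to library size). The mean in primordia had to lie at least 1 but less than 4 below that in mycelium, and the mean in young fruiting bodies at least 1 below that in primordia. Cap and stipe means had each to lie less than 1 from the young fruiting body. Every primordium library had to lie below every mycelium library, and every young fruiting body library below every primordium library. The falls and the level that follows are therefore how the genes were found, and their values below are a description, not a test.

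The vegetative mycelium of a mushroom is the network of hyphae that grows through the substrate and feeds the fungus. Under suitable conditions hyphae aggregate into a primordium, in which the tissues of the fruiting body are laid out. The young fruiting body then enlarges. Its cap comes to bear the spore-forming layer, while the stipe lifts the cap. The files pair the gene models with no product names, so each gene is called by its model number, and nothing is said here of what they encode. Tissue markers could not be checked for the same reason.

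Polyadenylated RNA of strain SZMC22713 was sequenced from 14 samples, which give 17139 gene models in all. The 3 vegetative mycelium libraries came from agar culture. The 3 primordium, 3 young fruiting body, 3 cap and 2 stipe libraries came from fruiting bodies collected in the field, which the labels give the same strain name. Primordium replicate 2 is of stage 1, about 1 mm tall and without a visible cap, and primordium replicates 1 and 3 are of stage 2, at 2 to 3 mm with a small cap initial. Young fruiting bodies were 5 to 15 mm tall and mature ones, divided into cap and stipe, 20 to 32 mm. The mycelium libraries ran on 1 of 2 flow cells and all others on the other. For the first fall, stage therefore cannot be told apart from culture against field or from flow cell, whereas the second fall and the level after it lie within 1 flow cell. The design text speaks of biological replicates but not of where each came from, so the errors and p-values cover only how far these samples lie apart. In bulk RNA, fewer cells of a type and less RNA per cell cannot be told apart.

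Library totals ran from 13563533 to 18419411 reads in mycelium and primordium and from 21528270 to 54625100 in the later groups. The deposited matrix was scaled by TMM (trimmed mean of M values), with factors of 0.573 to 0.786 in primordia and 1.14 to 1.35 in mycelium. Choosing the members rested on this scaling. With RPKM by library total, 18 genes met the same rule, and 7 of them were among the 32. Relative to the matrix, that scaling moved the median of all genes by -0.88 log2 from mycelium to primordium and by 0.55 from primordium to young fruiting body. Under it the 32 genes had a median first fall of 3.02 and a median second fall of 1.12, and 14 had a second fall under 1.

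Few genes took this course. A first fall of at least 1 was met by 5465 genes, and 4536 of these stayed under the limit of 4. A second fall of at least 1 left 209. Holding in the cap left 119, and holding in the stipe left 75. The separation of mycelium and primordium libraries left 54, and that of primordium and young fruiting body libraries left 32. By contrast 649 genes met the same first fall, with its separation of libraries, and then lay within 1 of the neighbouring level in young fruiting body, cap and stipe. The mirrored rule, a rise in 2 steps and then a held level, was met by 17 genes.

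The thresholds cut through a continuous range of values. The smallest first fall among the members was 1.10, in gene model 896010, and the nearest gene that met all other conditions stood at 0.98. The largest first fall was 3.60, in gene model 793574, and the only gene beyond the limit stood at 4.74. The smallest second fall was 1.03 against 0.97 just outside. Distances from the young fruiting body reached 1.00 in the cap against 1.00 just outside, which differ in the third decimal place, and 0.94 in the stipe against 1.01. The closest members left a gap of 0.09 log2 between mycelium and primordium libraries and of 0.05 between primordium and young fruiting body libraries.

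In mycelium the members had a median RPKM of 95.5, against 10.7 over all matrix genes. Their range was 8.16 to 3387, and 18 of the 32 were above percentile 90 of the matrix. In young fruiting bodies the median was 5.17, against 11.6 over all genes, with 7.39 in caps and 5.82 in stipes. The mean level over the 3 later groups, taken on the log2 scale, was above the matrix median for 10 of the 32. Genes well above the typical level in mycelium were thus mostly below it afterwards, but not silent. At least 15 reads were counted for every member in every later library, and 22 members had at least 100 in each.

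**Figure D1:**
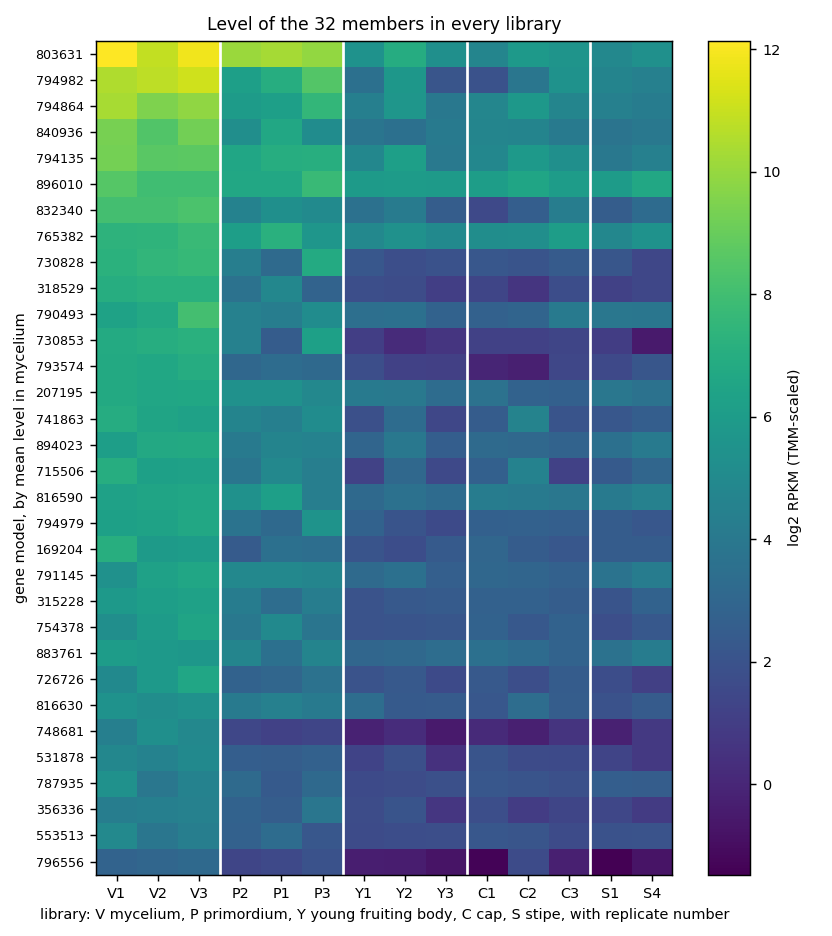
Log2 RPKM, scaled by TMM, of the 32 members (one per line, ordered by mean level in mycelium) in the 14 libraries, with white lines between groups. Values run from 12.14 to -1.47 on the log2 scale, and the 3 mycelium columns are highest for every member. In some lines, such as 794982, replicates of the later groups differ widely.

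Summed over the 32 genes, the deposited TPM (a length-adjusted share of the library, not scaled by TMM) made up 1.35% ± 0.157 of the library in mycelium (SD, n = 3). The share was 0.186% ± 0.0547 in primordia (n = 3) and 0.0415% ± 0.0106 in young fruiting bodies (n = 3). It was 0.0644% ± 0.0112 in caps (n = 3) and 0.0492% ± 0.00501 in stipes (n = 2). The 2 genes with the highest mycelium levels carried about as much as the other 30 together in mycelium and primordia, where the share without them was 0.636% ± 0.0333 and 0.0823% ± 0.0320. In young fruiting bodies they carried less than the other 30, whose share was 0.0325% ± 0.00440.

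The first fall had a median of 2.14 log2 over the members, or 4.40-fold, with a range of 1.10 to 3.60. The second had a median of 1.68, or 3.20-fold, with a range of 1.03 to 4.21. For 20 members the first fall was larger and for 12 the second. From mycelium to the mean of the 3 later groups the fall ran from 3.93-fold to 108-fold, with a median of 14.0-fold. In linear terms the later level was 1.24% to 25.5% of the mycelium level, with a median of 7.76%. Over all matrix genes the median first fall was 0.27 and the median second fall was -0.35, a small rise.

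**Figure D2:**
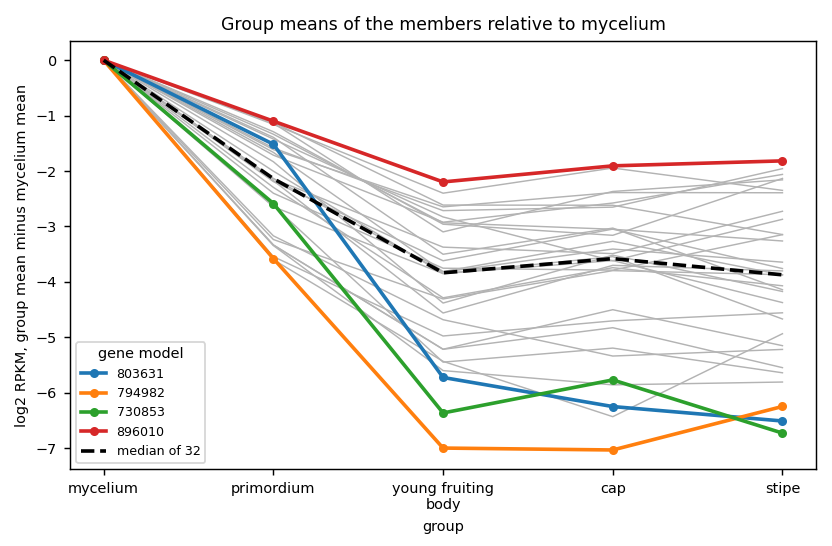
Group means of log2 RPKM minus the mycelium mean, for each member (grey), 4 named members (colours) and the median of the 32 (dashed). The median stands at -2.14 in primordium, -3.84 in young fruiting body, -3.58 in cap and -3.87 in stipe. The rule itself limits how far cap and stipe can lie from the young fruiting body.

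In the edgeR test on counts, 30 of the 32 were called lower in primordium than in mycelium (adjusted p under 0.05 and at least 2-fold), where 23.6% of all genes tested were. Gene models 796556 and 816590 were not called. From primordium to young fruiting body 31 were called lower, where 13.1% of all genes were, and gene model 832340 was not called. The rule used both contrasts, so nothing is read from these counts. Of the 66 genes called lower at both steps, 29 were members, which is 43.9% of those 66 and 90.6% of the 32.

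Gene model 803631 was the most abundant member in mycelium, at 4517, 1911 and 3733 RPKM in replicates 1 to 3. Its primordium values were 1104 in stage 1 and 1256 and 992 in stage 2. In young fruiting bodies it stood at 44.8, 125 and 38.9, in caps at 26.2, 58.6 and 47.4, and in stipes at 29.8 and 40.9. Its course was the reverse of most: the first fall was 1.52 ± 0.39 log2 (SE) and the second 4.21 ± 0.54, the largest second fall of the set. The primordium libraries were close together and, on the log2 scale, nearer to the lowest mycelium library than to any later library. Even so, with a later level 1.47% of that in mycelium, it was the member with the second highest mean over the later groups.

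Gene model 794982 had the largest fall of all, 108-fold from mycelium to the later mean. Mycelium values were 1457, 1744 and 2294 RPKM. Primordium values were 74.7 in stage 1 and 127 and 358 in stage 2, and young fruiting bodies had 11.8, 53.8 and 4.36. Caps had 3.95, 14.5 and 45.0, and stipes 25.9 and 21.6. The differences were -3.58 ± 0.69 log2 from mycelium to primordium and -3.42 ± 1.246 from primordium to young fruiting body (SE). Replicates outside mycelium and stipe were far apart: the log2 SD was 1.83 in young fruiting bodies and 1.76 in caps, each the highest among the members. Its young fruiting body replicate 2 lay nearly as high as the stage 1 primordium.

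**Figure D3:**
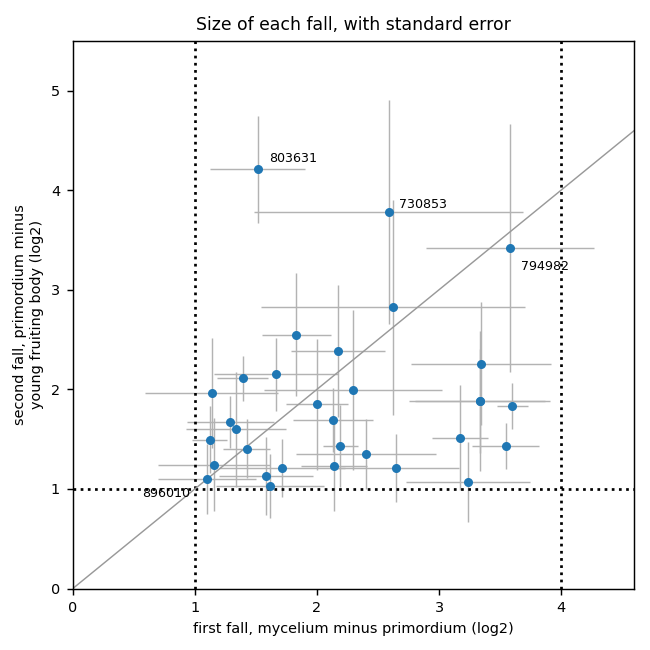
First fall (mycelium minus primordium) against second fall (primordium minus young fruiting body) of each member in log2 RPKM, with standard errors as bars, dotted lines at the limits of the rule and a line of equal falls. Gene model 803631 lies far above that line at 1.52 and 4.21, and 896010 sits in the corner at 1.10 and 1.10.

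Gene model 730853 fell 78.2-fold to the later mean. It had 113, 129 and 145 RPKM in mycelium, 22.4 in the stage 1 primordium and 5.61 and 77.9 in stage 2. Young fruiting bodies had 2.09, 1.16 and 1.56, caps 2.21, 2.27 and 2.60, and stipes 2.02 and 0.725. Mycelium and caps were tight, while the primordium libraries lay far apart, with a log2 SD of 1.90, the highest among the members. The 15 reads behind its lowest stipe value were the fewest of any member in a later library.

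Gene model 730828 had a like course. Its values were 150, 177 and 200 RPKM in mycelium, 20.3 in the stage 1 primordium and 9.46 and 117 in stage 2. Young fruiting bodies had 4.70, 3.51 and 3.84, caps 4.68, 4.26 and 5.39, and stipes 4.47 and 2.72. In both genes primordium replicate 3 was close to the mycelium libraries and primordium replicate 1 was lowest. The pair was noticed after the values were seen. Its ratio of RPKM, 730828 over 730853, ran from 0.905 in the stage 1 primordium to 3.75 in stipe replicate 4, so the levels were not in a fixed ratio.

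Deviations of the members from their group means were compared over the 14 libraries. These 2 genes had the highest correlation, r = 0.950, of 496 pairs of members, and gene model 794979 with 730828 followed at r = 0.915. No other pair exceeded 0.9. Pairs over 0.9 made up 0.403% of member pairs, against 0.0923% of pairs of a member with another matrix gene. Gene models 730853 and 730828 spread most in primordia, with log2 SDs of 1.90 and 1.86. The median over all pairs was 0.0716, against -0.0039 between members and all other matrix genes, so within groups the 32 did not vary as one. The 14 points share libraries and scaling, and the values are a description.

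Gene model 896010 was the highest member after the fall and the one that lost least. It had 372, 248 and 247 RPKM in mycelium, 104 in the stage 1 primordium and 104 and 215 in stage 2. Young fruiting bodies had 61.4, 63.1 and 61.2, caps 69.9, 93.9 and 66.1, and stipes 63.7 and 102. Its later level was 25.5% of that in mycelium. Primordium replicate 3 stood close to the lower mycelium libraries, while the highest stipe value was just under the other primordia.

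**Figure D4:**
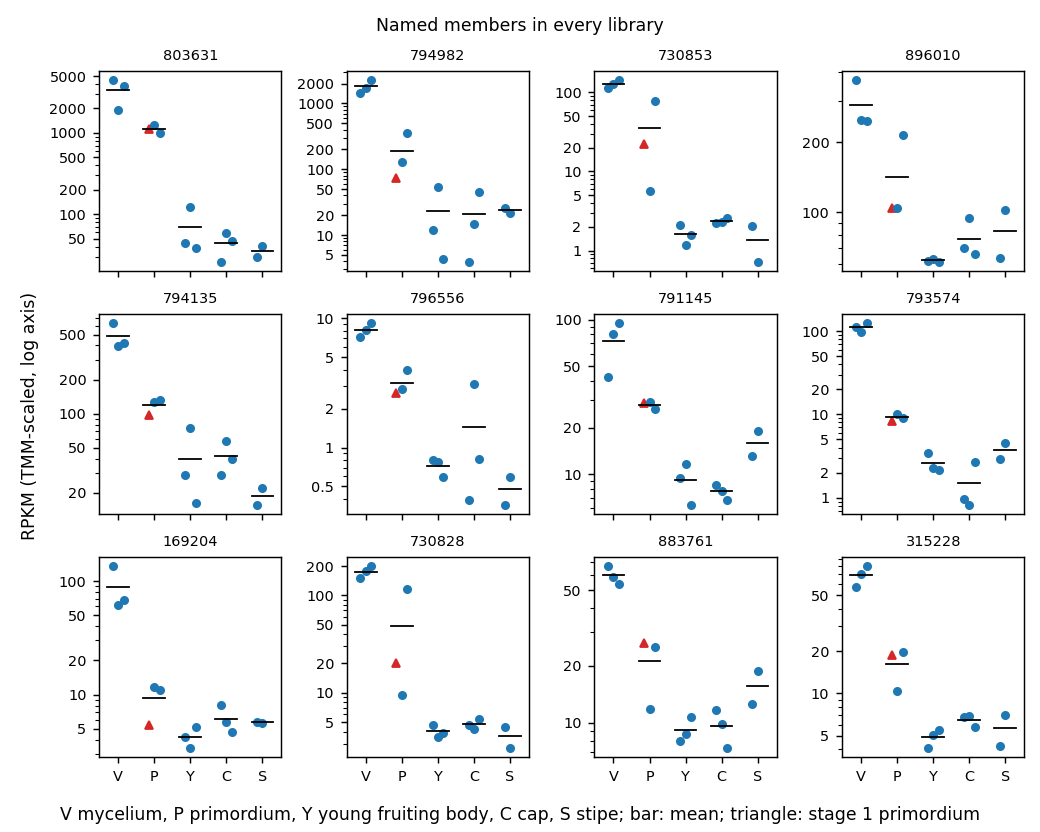
RPKM, scaled by TMM, on a log axis, of the 12 named members in every library (dots; red triangle for the stage 1 primordium) with group means as bars. Primordium values separate from both neighbours in every panel, as the rule requires, narrowly from mycelium in 896010 and from young fruiting body in 169204, and widely from mycelium in 793574.

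The 20 members outside the named 12 spanned a narrower range. Their mean RPKM ran from 21.4 to 994 in mycelium, from 2.49 to 107 in primordia and from 0.940 to 34.2 in young fruiting bodies. Caps ran from 1.15 to 48.4 and stipes from 1.30 to 35.9. Their differences were -3.54 to -1.12 log2 at the first step, with a median of -2.16, and -2.55 to -1.03 at the second, with a median of -1.50. The later level was 1.90% to 22.0% of that in mycelium. None of the 20 had a second fall as large as 803631, 794982, 730853 or 730828.

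Replicates of a group did not contribute evenly. Mycelium replicate 3 was the highest of its group for 17 members and replicate 2 for 2, where over all matrix genes they were highest for 27.6% and 28.8%. Young fruiting body replicate 2 was the highest of its group for 17 members (33.3% of all genes) and stood at a median of 0.22 log2 above the group mean, with replicate 3 at -0.38. Between replicates the members had a median log2 SD of 0.33 in mycelium, 0.52 in primordia, 0.41 in young fruiting bodies, 0.41 in caps and 0.37 in stipes. Over all genes these were 0.34, 0.61, 0.40, 0.37 and 0.24.

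The cap and stipe libraries entered the rule only through their means, so their single values are partly free. All 5 mature libraries lay below all 3 primordium libraries for 23 of the 32 members. All caps did so for 27, against 20.6% of all matrix genes, and both stipes for 27, against 20.9%. Over all matrix genes the 5 mature libraries lay below the primordia in 14.1%. Among the 75 genes that met the conditions on means, the members included, they did so in 37, or 49.3%. For all caps alone this share of the 75 was 62.7%, and for both stipes 65.3%. The rule keeps the mature means low and the lowest primordium library above the young fruiting bodies, so nothing particular to the members is read from their 71.9%. Relative to the young fruiting body mean, cap and stipe were both higher for 13 members and both lower for 6. The cap was higher and the stipe lower for 8, and the reverse held for 5. Both tissues were within 0.5 log2 of the young fruiting body for 9 members. Among the 9 members in which a mature library reached the primordium range, the widest overlap in fold was in gene model 715506, named after its values were seen, where the highest mature value was 23.9 RPKM and the lowest primordium value 14.3.

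Cap and stipe were then compared directly, a contrast that the rule limits but does not use: with each tissue within 1 of the young fruiting body, their means cannot differ by 2 or more. In edgeR none of the 32 was called (0 genes, with 3 at an unadjusted p under 0.05), where 12.6% of all genes tested were called. Of all genes tested, 27.6% had an unadjusted p under 0.05. Among the 8796 tested genes under the same limit in both tissues, 4.38% were called and 17.5% had an unadjusted p under 0.05. DESeq2 called gene models 791145 and 793574, where it called 17.7% of all genes tested. Limma-voom called 791145, where it called 17%. As fitted by edgeR on counts, the members' cap minus stipe differences ran from -1.32 to 1.63 log2 with a median of 0.26. These are not the differences of log2 means that the rule limits. The fitted level was higher in cap for 21 members and in stipe for 11. Over all genes 50.2% were higher in cap and the median was 0.00, and over the 8796 genes these were 48.7% and -0.02. The members' median was 0.15 without stipe replicate 1 and 0.17 without cap replicate 2. It was 0.17 in limma-voom, and 0.45 without TMM, where the median over all genes was 0.20. A missed threshold does not show equal levels, since the standard errors of these differences had a median of 0.45 log2 and ran from 0.31 to 1.01.

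Gene model 791145 was nearest to a call. Cap values were 8.51, 7.81 and 6.84 RPKM and stipe values 13.0 and 18.8, without overlap. The difference, cap minus stipe, was -1.04 ± 0.33 log2 (SE; edgeR adjusted p = 0.0536), with adjusted p = 0.0201 in DESeq2 and 0.0433 in limma-voom. It also differed earlier in spread: mycelium had 42.4, 80.5 and 95.1 RPKM, while primordia had 29.0 in stage 1 and 29.1 and 26.3 in stage 2, the tightest primordium values of the set. Young fruiting bodies had 9.35, 11.7 and 6.33, so the caps lay within their range and the stipes above it.

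Gene model 793574 had the largest first fall of the set and little spread around it. Mycelium had 112, 98.6 and 125 RPKM, and primordia 8.38 in stage 1 and 10.2 and 9.02 in stage 2. Young fruiting bodies had 3.45, 2.27 and 2.18. Caps had 0.970, 0.824 and 2.67, and stipes 2.94 and 4.50, with cap replicate 3 just below the lower stipe. The cap minus stipe difference was -1.32 ± 0.45 log2 (SE; edgeR adjusted p = 0.0747), with adjusted p = 0.0247 in DESeq2 and 0.0843 in limma-voom. The lowest later library held 21 reads.

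In the other direction, gene model 794135 had 28.6, 57.6 and 40.2 RPKM in caps and 15.7 and 21.9 in stipes. The difference was 1.17 ± 0.54 log2 (SE; edgeR adjusted p = 0.182). It had 633, 399 and 417 RPKM in mycelium, 97.5 in the stage 1 primordium, 128 and 131 in stage 2, and 28.5, 75.1 and 16.4 in young fruiting bodies. Caps and stipes did not overlap, but the young fruiting bodies spanned nearly both.

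Gene model 796556, the lowest member in mycelium, had 0.389, 3.09 and 0.817 RPKM in caps and 0.361 and 0.587 in stipes. The difference of 1.63 ± 0.76 log2 (SE; edgeR adjusted p = 0.187) rested on cap replicate 2, which lay among the primordium values of 2.63 in stage 1 and 2.86 and 3.95 in stage 2. The other caps lay close to the stipes. Mycelium had 7.21, 8.06 and 9.22 RPKM and young fruiting bodies 0.799, 0.774 and 0.596.

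**Figure D5:**
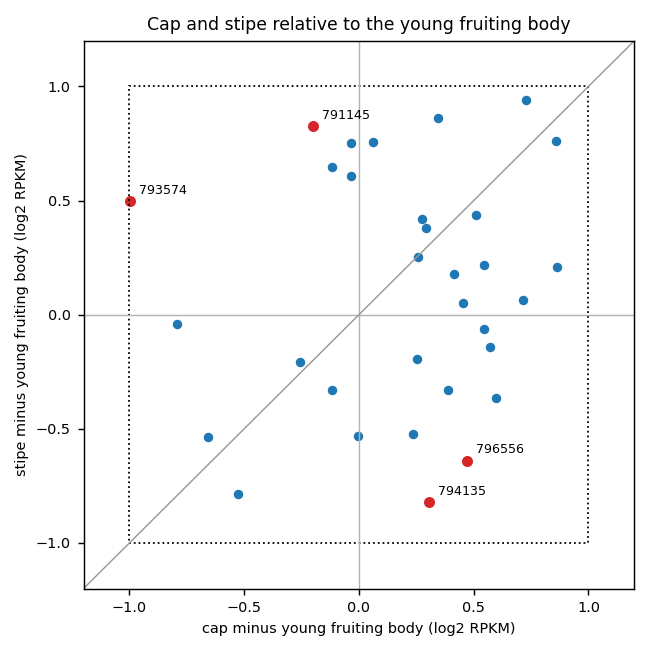
Cap minus young fruiting body against stipe minus young fruiting body in log2 RPKM for the 32 members, with the limits of the rule as a dotted square and a line where cap and stipe are equal. The 4 genes in red are those with the smallest p in each direction, 793574 sits on the lower cap limit, and points lie in all 4 quadrants.

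The rule did not use the difference between the primordium stages, but it limits it, since each primordium library had to lie between the mycelium and the young fruiting body libraries. Stage 2 was compared with stage 1 in a fit with the single stage 1 library set apart, whose spread is taken to equal that of the remaining groups. A stage and a single library cannot be told apart here. In edgeR none of the members was called (0 genes, with 0 at an unadjusted p under 0.05), where 2.65% of all genes tested were. Among the 144 tested genes that met the same limits on single libraries, the members included, 2.08% were called. DESeq2 and limma-voom called 0 as well, with 1 and 0 at an unadjusted p under 0.05. The level was higher in stage 2 for 26 members and higher in stage 1 for 6, with a median of 0.43 log2. Over all genes 50.6% were higher in stage 2 and the median was 0.01, and over the 144 genes these were 61.8% and 0.14. The members' median was 0.24 in limma-voom. Leaving out a stage 2 library sets 1 library against 1, which compares those libraries and not the stages. The count higher in stage 2 was then 21 without primordium replicate 1, with a median of 0.36, and 20 without primordium replicate 3, with a median of 0.20. Stage 1 was the lowest of the 3 primordia for 12 members, or 37.5%, against 38.4% of all genes and 39.6% of the 144. It was the highest for 4, or 12.5%, against 30.9% and 22.9%. Standard errors had a median of 0.61 log2, larger than the median difference.

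Gene model 169204 had the smallest p between the stages. Its primordium values were 5.35 RPKM in stage 1 and 11.7 and 10.9 in stage 2, a difference of 1.08 ± 0.51 log2 (SE; edgeR adjusted p = 0.311). The stage 1 value lay just above the young fruiting bodies, at 4.19, 3.38 and 5.17, and within the caps, at 8.01, 5.68 and 4.66. Stipes had 5.69 and 5.65. Mycelium had 136, 62.1 and 67.6 RPKM, so nearly all of its fall was already passed in the stage 1 library. For gene model 730828 the difference was 1.64 ± 0.98 log2 (SE; edgeR adjusted p = 0.438), and the stage 2 libraries lay on both sides of stage 1.

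The members lowest in p among those higher in stage 1 showed smaller differences. Gene model 883761 had 26.3 RPKM in stage 1 and 11.8 and 25.1 in stage 2, a difference of -0.51 ± 0.43 log2 (SE; edgeR adjusted p = 0.609). It had 66.9, 58.7 and 53.5 in mycelium, 8.01, 8.70 and 10.6 in young fruiting bodies, 11.7, 9.85 and 7.36 in caps and 12.5 and 18.7 in stipes. Both stipes lay above the lower stage 2 primordium. Gene model 315228 had 18.8 RPKM in stage 1 and 10.4 and 19.6 in stage 2, a difference of -0.33 ± 0.41 log2 (SE; edgeR adjusted p = 0.776). It had 57.1, 70.5 and 80.4 in mycelium, 4.10, 5.07 and 5.49 in young fruiting bodies, 6.81, 6.87 and 5.79 in caps and 4.26 and 7.07 in stipes, all below the primordia.

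In gene model length and read mapping the set was unremarkable. Lengths ran from 277 to 5112 bases with a median of 1332, against 1196 over all matrix genes, and 19 of 32 were longer than the matrix median. All reads were unique to 1 gene model for 19 members, and 3 had under 99% unique reads, which is 9.38% against 8.80% of all matrix genes. The lowest share was 89.3%, so near-identical copies could have taken part in few of the values. Of the named members only 883761, at 98.2%, was under 99%.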

How the data were processed

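Per the file headers, the deposited tables list total and unique read counts, RPKM, TPM and length for 17139 gene models of the set Ricmel1. The region of each model runs from 1 to its length, so no genome position is given. The deposited counts are whole reads without normalization, the deposited RPKM values divide by length and library total, and the deposited TPM values are scaled to the same sum in every library. The deposited log2 matrix holds the 15477 genes with at least 5 reads in at least 4 libraries. Recomputing log2 RPKM from the counts, with TMM scaling and 0.5 added to each count, gave 100% of its values to within 1e-06. R 3.0.2, limma 3.18.13 and edgeR 3.4.2 appear in the submitters' processing notes. Which mapper and which build were used is not given in the sources used here.

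Levels in the text are 2 to the power of the matrix values. The members and lists were chosen with earlier results of these data known. Tests used edgeR 4.0.16 (quasi-likelihood, TMM, filterByExpr) in R 4.3.3 on total counts over all genes, with Benjamini-Hochberg adjustment. Standard errors of the falls come from the replicate SDs of log2 RPKM. For the cap and stipe and the stage differences, the SE is the fitted difference divided by the square root of its F statistic, without sign. The cap and stipe test fitted all 14 libraries in 5 groups, with 9 residual degrees of freedom, and the stage test 6 groups, with 8. The tests were tried on simulated counts, but the outcome is not given here and nothing in the text rests on it. Alternatives used DESeq2 1.42.0, limma 3.58.1 (voom), other scalings, unique reads, other filters and thresholds, each library left out, and the replicate number as a block.

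Named were the 2 members highest in mycelium, the 2 with the largest fall to the later mean, the 2 with the highest later mean, and the 2 with the smallest adjusted p in each direction between cap and stipe and between primordium stages, 12 genes in all. Others are named where a count or a pair is singled out, chosen after their values were seen.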

Additional observations from a re-analysis of the deposited data

How the results depend on the processing

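How many genes met the rule changed with the scaling, the limits and the libraries. Against 32, library total without TMM gave 18, holding within 0.5 gave 9 and group means alone gave 75, the last 2 by construction. DESeq2 size factors gave 44, of which 31 were members, medians of replicates 26, of which 23, a larger step left 22, log2(RPKM + 1) gave 38, of which 29, and unique reads gave the same 32. With each library left out the count ran from 27 to 52. It was 52 without primordium replicate 2, of which 30 were members. Leaving out a mycelium, primordium or young fruiting body library also loosens the rule, since its separations then hold over fewer libraries. How much of each change in count came from this was not tested. Of the 32, 13 met the rule in all 14 sets with a library left out. Under library total the log2 change of each named member shifted by the same -0.88 at the first step and 0.55 at the second. This shift exceeded the replicate spread for 17 of the 24 changes, a count that depends only on that spread.

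Between cap and stipe, where edgeR called 0 members, DESeq2 called 2, limma-voom 1 and a fit of only cap and stipe 1. Over all genes tested they called 12.6%, 17.7%, 17% and 18.7%, and the cause of the differences was not tested. With each library left out 0 to 1 was called, gene model 207195 without cap replicate 1, 793574 without cap replicate 3 and 791145 in the other such fits with a call. Over all genes tested these fits called 10.5% without cap replicate 1, 8.39% without cap replicate 3, and 12.4% and 12.7% in the others. Between primordium stages, leaving out primordium replicate 1 or 3 sets 1 library against 1, so calls in those fits say nothing of stage and are not counted. Leaving out the stage 1 library gives no value. The replicate number as a block gave 0 members in both tests, with calls over all genes going from 1954 to 100 and from 420 to 4. Same-numbered libraries did not deviate together (r of -0.301 to 0.0803 over 22 pairs, none over 0.1), and cap and stipe share 1 number. No differently numbered pairs stand beside these values, so whether equal numbers mark a shared origin was not tested. Depth limited few values, the lowest being 15 reads, and 1 stage 1 library limits what the stage test could detect.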
